A study of Mus with 50 samples.

Results

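Carbonic anhydrase genes were followed across the livers of 50 female mice, with Car3, the isoform of highest signal among them, as the point of reference. The set held 7 listed genes, Car1, Car2, Car3, Car4, Car5a, Car8 and Car14, out of 22180 named genes on the array. Each gene was read from the probe set that carries its symbol alone and, where there were several such probe sets, from the one with the highest median. Of the 7 genes, 5 had such a probe set (Car1, Car2, Car3, Car4 and Car8). Car5a and Car14 were each found only on 1 probe set shared with another gene, so no value is given for them. The probe sets were chosen by their medians and the genes with earlier results of these data known, so levels and spread below are descriptions without a test.

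The mice came from a backcross between C57 and FVB, carried the MMTV-Neu transgene and had breast cancer as a comorbidity. The viral MMTV promoter drives the Neu proto-oncogene mainly in mammary epithelium, and all 50 mice carried it, so the data hold no liver without the transgene. The series selected livers from mice with extreme ageing grades, but the labels do not assign a grade to any mouse. The 50 livers, 1 array each, therefore formed 1 group, and what the data allow is the level of each gene in each liver and its covariation with other genes over livers. Mice are identified below by the animal numbers of their titles. Labels name the tissue as liver and the protocol speaks of purified cells. The hepatocyte gene Alb (albumin) lay between 13.20 and 13.54 on the log2 scale in all 50 livers, 13.54 being the highest value of any probe set. Alb alone therefore says little about hepatocyte content. The mean standardised value of 11 hepatocyte markers was -3.88 in animal 64, -1.56 in animal 235, -1.28 in animal 84 and -1.13 in animal 179. Its highest value was 0.78, in animal 270.

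Carbonic anhydrases catalyse the reversible hydration of carbon dioxide to bicarbonate and a proton. Car1 and Car2 are cytosolic forms that are abundant in red blood cells, Car2 being among the fastest enzymes of the family, and Car2 is also found in bile duct and pancreatic duct cells. Car3 is a cytosolic form of low hydratase activity that is abundant in liver, fat and slow skeletal muscle and has been linked to protection from oxidative damage. In rodent liver its level depends on sex and on the pattern of growth hormone secretion. Car4 is anchored to the outer face of the plasma membrane, for instance in kidney tubules and capillary endothelium, and Car5a and Car5b are mitochondrial. Car8 has lost catalytic activity and binds the inositol trisphosphate receptor.

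Before the results, livers that differ from the rest are named, because several results rest on them. Animals 64, 84, 87 and 235 stood apart, with median correlations to the other livers of 0.794, 0.903, 0.932 and 0.857. These were taken over the 11090 genes whose median signal was at or above 3.61, the median level of all named genes. Another 8 livers (animals 96, 149, 161, 170, 229, 257, 282 and 289) had a raised level of at least 1 list of marker genes for cells other than hepatocytes, as described beside the results. Removing these 12 livers, a choice made after the values were seen, left 38. Animal 179 was in neither set, but had the second lowest Car3 signal. Results are given in all 50 livers and, for those that these livers change, also without the 4 (46 livers), without the 12 (38 livers), or without either set and animal 179 (45 or 37 livers).

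Car3 had a high signal in most livers and a very low one in a few. Its log2 signal was lowest at 3.69 in animal 84, had a median of 12.19 and was highest at 12.97 in animal 101. After animal 84 the lowest values were 5.18 in animal 179, 8.78 in animal 64 and 9.13 in animal 235. Of the 50 livers 37 lay within 1 log2 unit of the median, 13 lay more than 1 below it, 7 lay more than 2 below it and 0 lay more than 1 above it, so the spread was one of low livers below a narrow upper band. The SD was 1.77, rank 14 among the 22180 genes, whose median SD was 0.21. It was 1.30 without the 4 livers that stand apart (rank 40), 1.25 without the 12, and 0.54 when animal 179 was also removed. A second probe set of Car3 gave the same picture, with 2.81 in animal 179 and 3.07 in animal 84 around a median of 8.37, and the 2 probe sets had r = 0.939 over livers (permutation p = 1e-05, the smallest that 100000 permutations can give; Spearman's rho = 0.842).

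The livers low in Car3 were mostly ones that also differed in other ways. Of the 13 livers more than 1 log2 unit below the median, 9 were among the 12 described above, and the other 4 were animals 89 (10.63), 179 (5.18), 187 (10.40) and 284 (11.14). Animal 84 had high signals of kidney tubule genes: Umod, which encodes uromodulin, read 10.46 against a median of 3.21, and the endocytic receptor gene Lrp2 read 10.02 against 2.87. Kidney markers were highest in this liver for 11 of 12 measured genes, a list chosen after the values were seen. Animal 179 carried the highest values of the acute phase genes Orm2 (12.37 against a median of 7.71), Lcn2 (11.71 against 8.57) and Saa2 (12.90 against 7.69) and of Socs3, the cytokine-induced inhibitor of JAK-STAT signalling (7.14 against 4.93). The part of other tissue or of the acute phase in the low Car3 signals was not tested. In whole tissue, fewer cells of a type and less RNA per cell cannot be told apart.

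Muscle and fat are the other tissues known for Car3. Animals 282 and 289 had the highest skeletal muscle marker levels, with mean standardised values of 5.49 and 3.40, and their Car3 signals were 11.69 and 10.42, both under the median. The 14 muscle genes measured had a median r of 0.007 with Car3, and 0 of them passed in the limma fit described below, adjusted or unadjusted. The 11 adipocyte genes had a median r of 0.196, 1 of them passed (Acvr1c, r = 0.401), and 4 were positive and 1 negative at an unadjusted p under 0.05. In 46 livers their median r was 0.056 and 0 passed by limma, also at an unadjusted p under 0.05. The part of fat in the Car3 signal was not tested.

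Car8 varied far less than Car3 and was low in several of the same livers. Its signal was lowest at 6.95 in animal 84, had a median of 8.84 and was highest at 9.33 in animal 270. The next lowest values were 7.12 in animal 64, 7.56 in animal 235 and 7.89 in animal 179, so the 4 lowest livers for Car8 were also the 4 lowest for Car3. Of the 50 livers 46 lay within 0.5 log2 units of the median. The SD was 0.46, and 0.25 without the 4 livers that stand apart.

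Car2 and Car1 showed the opposite shape, with a few livers far above the rest. Car2 had a lowest signal of 5.72 in animal 179, a median of 6.66 and a highest signal of 12.55 in animal 64, followed by 9.60 in animal 257 and 8.95 in animal 96. In 8 livers it lay more than 1 log2 unit above its median and in 0 more than 1 below. Car1 had lowest signals of 3.10 in animal 179 and 3.11 in animal 84, a median of 4.63 and a highest signal of 12.65 in animal 64, followed by 7.25 in animal 257. Both genes thus had the same 2 livers at the top, and both had animal 179 at the bottom. Their SDs fell from 1.15 to 0.78 for Car2 and from 1.31 to 0.64 for Car1 without the 4 livers that stand apart.

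Car4 had a low signal throughout. Its median of 2.99 lay below 3.61, the median level of all named genes, and its lowest value was 2.62 in animal 101. The highest was 4.62 in animal 84, followed by 3.69 in animal 301, and 47 livers lay within 0.5 log2 units of the median. Signals of different genes on these arrays depend on their probes, so the order of the medians is not an order of RNA amounts.

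**Figure D1:**
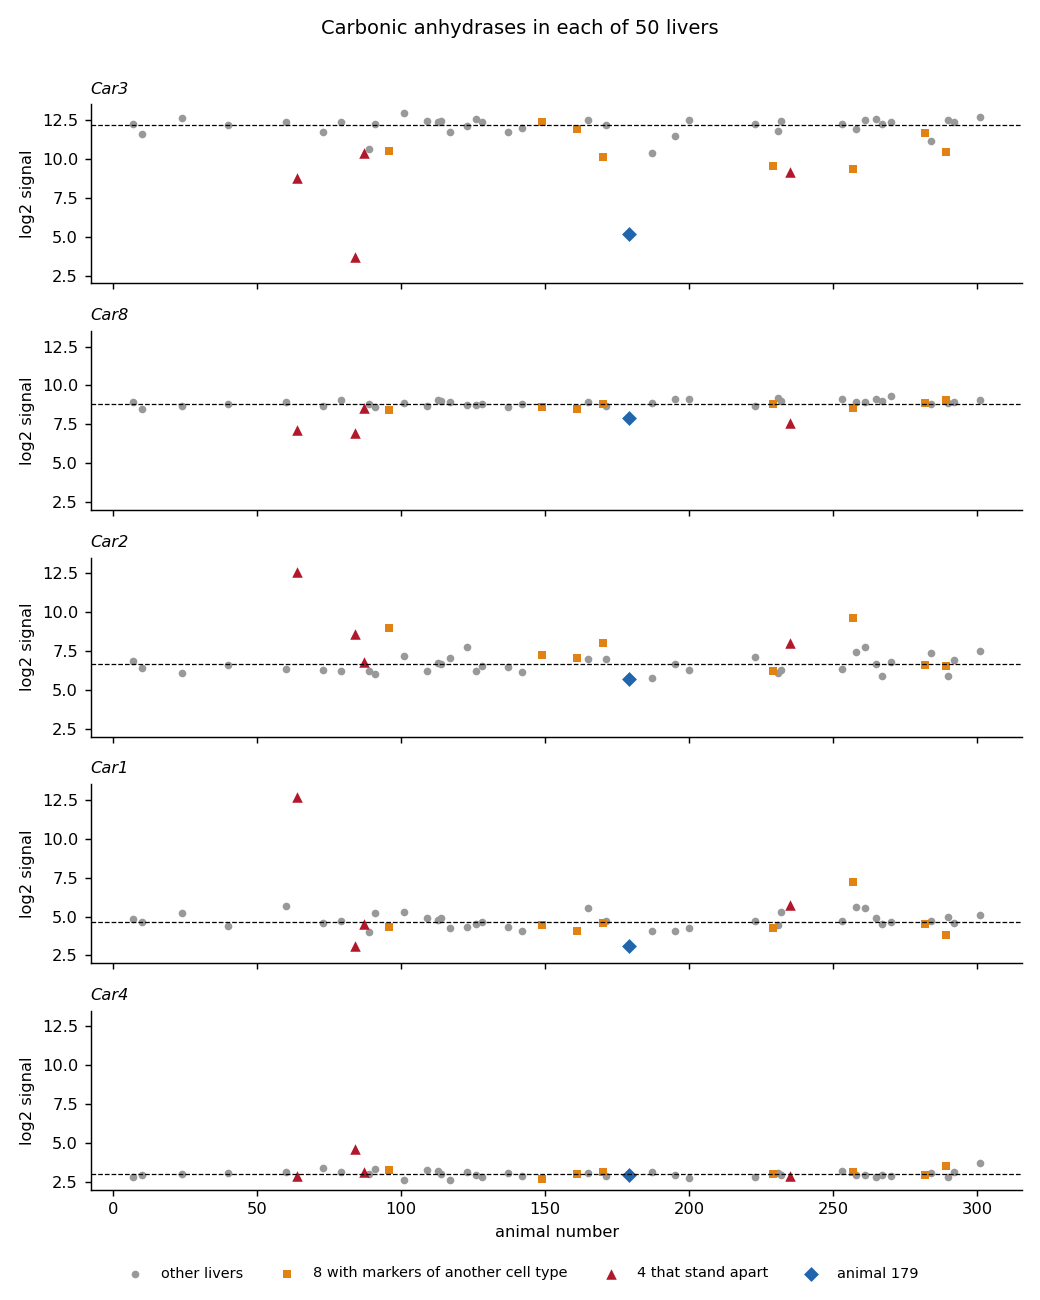
Log2 signal of the 5 measured carbonic anhydrases (one panel each, same axis) against animal number, with 1 point per liver and a dashed line at the median; triangles are the 4 livers that stand apart, squares the 8 with markers of another cell type and the diamond animal 179. Car3 fell to 3.69 and 5.18 in animals 84 and 179 below a median of 12.19, whereas Car1 and Car2 peaked at 12.65 and 12.55 in animal 64.

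The 9 other carbonic anhydrases on the array were all measured and mostly had low, narrow signals. Car7, Car9, Car10 and Car11 had medians of 4.01, 3.53, 2.79 and 3.56 and SDs of at most 0.18. The mitochondrial Car5b had a median of 4.86 and was highest in animal 84 at 6.38. Car15, a membrane-linked form found in kidney, had a median of 3.43 and read 6.25 in animal 84, against 3.71 in the next highest liver. Car12, a transmembrane form, was highest at 6.36 in animal 161 and 4.79 in animal 84 around a median of 2.87, and the secreted salivary form Car6 was highest at 4.63 in animal 161 around a median of 2.49. Animal 161 also had the highest mammary epithelial marker level, with a mean standardised value of 4.71. Car13, a cytosolic form, was highest at 6.33 in animal 235, the liver with the highest macrophage marker level (3.95), around a median of 4.03.

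Covariation was tested by fitting every other named gene on the signal of 1 carbonic anhydrase with limma, with Benjamini-Hochberg adjustment over all 22179 genes. A gene passed at an adjusted p under 0.05, and r is Pearson's correlation over livers. On Car3, 13.9% of all genes passed in 50 livers, 6% with a positive and 7.89% with a negative slope. Without the 4 livers 3.13% passed, without the 12 livers 2.21%, and without the 12 livers and animal 179 0.234%, which was 52 genes. Without the 4 and animal 179 it was 3.16%. Counts of members and of list genes are to be read against these shares.

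Among the other carbonic anhydrases, Car8 followed Car3. Its r was 0.776 (permutation p = 1e-05), rho was 0.498 (permutation p = 0.00043), and its slope was 0.20 log2 units of Car8 per unit of Car3 (SE 0.024, adjusted p = 1.33e-08 by limma). Without animals 84 and 179, the 2 livers farthest from the Car3 median, r was 0.621. It was 0.597 in 46 livers (adjusted p = 0.00159) and 0.672 in 38 livers (adjusted p = 0.00099). The call rested on animal 179 in these smaller sets, since without it r was 0.287 in 45 livers (adjusted p = 0.372) and 0.193 in 37 livers (adjusted p = 0.845). Within 4 stretches of animal numbers known from earlier work on these data (7 to 79, 84 to 128, 137 to 235 and 253 to 301), r was 0.972, 0.951, 0.659 and 0.627 in all livers.

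Car1 did not pass with Car3 over all livers but passed in the 38 livers. In 50 livers r was 0.013 (permutation p = 0.912, adjusted p = 0.969 by limma), while rho was 0.426 (permutation p = 0.00228), since animal 64 combined the highest Car1 with a low Car3. Without animal 64 r was 0.400 (adjusted p = 0.0304). In 46 livers r was 0.341 (adjusted p = 0.19), and without animal 179 as well it was 0.090 (45 livers, adjusted p = 0.868). In 38 livers it was 0.673 (adjusted p = 0.000355), and in the 37 livers that also exclude animal 179 it was 0.572 (adjusted p = 0.0429) with rho = 0.593. This last call held in the fit on Car3 only. In the fit on Car1 limma called 0 genes in the same 37 livers, with 1360 (6.13%) at an unadjusted p under 0.05. Within stretches of these 37 livers, of 7, 10, 10 and 10 mice, r was 0.530, 0.773, 0.633 and 0.105. The sign was not the same in every set: without the 2 livers farthest from the Car3 median, animals 84 and 179, r was -0.380 (adjusted p = 0.032), with animal 64 still present. Within stretches of all 50 livers r was -0.934, 0.851, 0.432 and -0.404.

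Neither Car2 nor Car4 passed with Car3 once the 4 livers were left out. For Car2 r was -0.360 in 50 livers (permutation p = 0.0299, rho = -0.201 with permutation p = 0.16), and the adjusted p of 0.0526 lay just above the threshold. In the fit on Car2 the same pair passed (adjusted p = 0.0387 by limma), so the call in 50 livers depended on the gene fitted on. The r was -0.070 in 46 livers (adjusted p = 0.907) and 0.314 in 38 livers (adjusted p = 0.354). For Car4 r was -0.507 (permutation p = 0.00723, rho = -0.233 with permutation p = 0.103, adjusted p = 0.00257), and -0.073 without animal 84 alone (adjusted p = 0.823). Of the 9 other family members 1 passed with Car3, Car15 with r = -0.645, and without the 4 livers its r was -0.272 (adjusted p = 0.446).

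Among the pairs without Car3, Car1 and Car2 had r = 0.728 (permutation p = 0.00031, adjusted p = 2.54e-08) but rho = 0.240 (permutation p = 0.0951). Without animals 64 and 257, which had both genes highest, r was 0.077, and it was 0.461 in 46 livers (adjusted p = 0.497) and 0.372 in 38 (adjusted p = 0.338). Car2 and Car8 had r = -0.590 (permutation p = 0.00067, rho = -0.231 with permutation p = 0.105, adjusted p = 7.37e-05), which was -0.129 in 46 livers and turned to 0.231 in 38 livers (adjusted p = 0.881 and 0.854). The remaining pairs, Car1 with Car4 and Car8, and Car4 with Car2 and Car8, did not pass in 50 livers, with r between -0.362 and 0.141 and adjusted p between 0.0666 and 0.543. Car1 with Car8 passed without animal 84 (r = -0.546, adjusted p = 0.000376), and Car4 with Car8 passed without animal 64 (r = -0.469, adjusted p = 0.0175). Car1, Car3 and Car2 lie next to each other on chromosome 3 in that order in RefSeq's gene order, with Car13 before Car1 among measured genes, while Car8 lies on chromosome 4 and Car4 on chromosome 11. In 50 livers the neighbours of Car3 had r of 0.013 (Car1) and -0.360 (Car2) with it, against 0.776 for Car8 on another chromosome. In 38 livers these were 0.673, 0.314 and 0.672, and in 37 livers 0.572, 0.181 and 0.193.

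**Figure D2:**
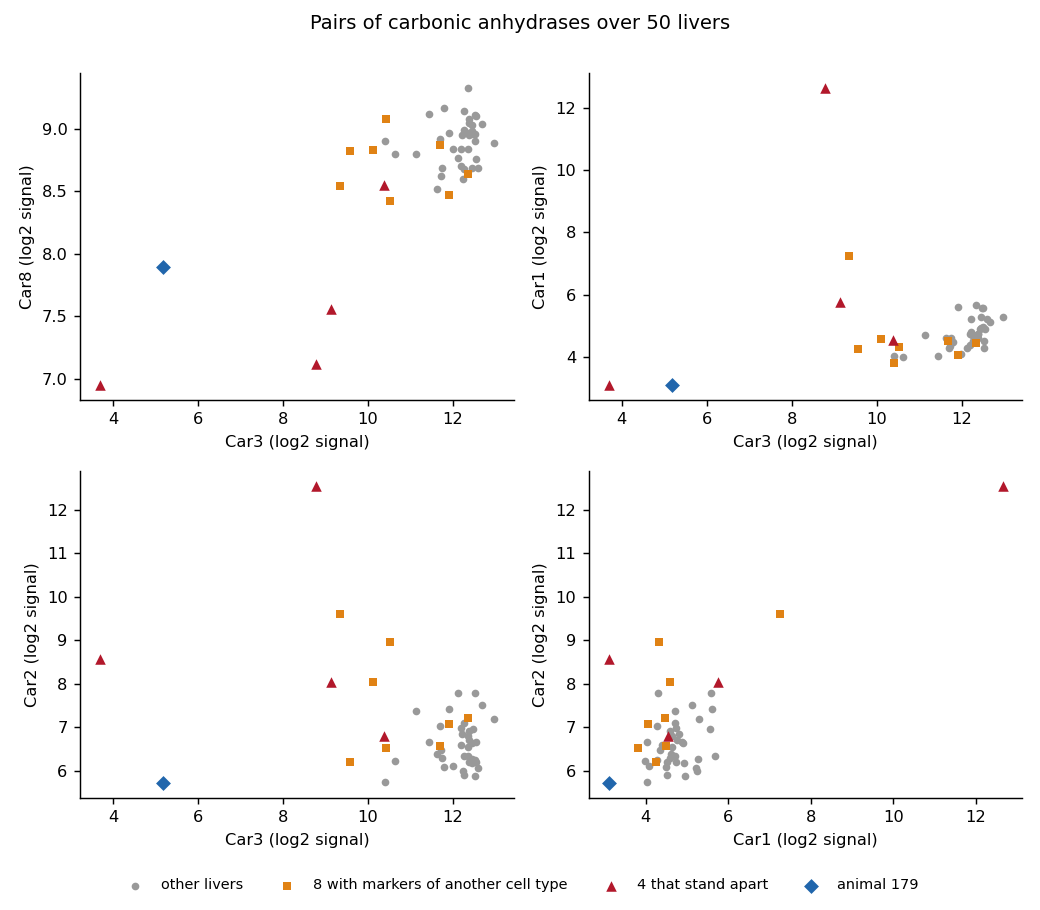
Log2 signals of 4 pairs of carbonic anhydrases, 1 point per liver, with the same symbols for the 4 livers that stand apart, the 8 with markers of another cell type and animal 179. Car8 was low in the livers lowest in Car3, Car1 increased along Car3 in the grey points (r = 0.572 in 37 livers) while animals 64 and 257 lay far above them, and these 2 livers had the highest Car1 and Car2.

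The gene most like Car3 was another enzyme gene of the liver. By r over 50 livers among genes at or above the median level, the first 5 were Sult2a8 (0.933), a hepatic sulfotransferase of bile acids, Gamt (0.894), the last enzyme of creatine synthesis, Cyp2b9 (0.887), a female-biased cytochrome P450, Gm4952 (0.872) and Afm (0.861), the secreted vitamin E-binding protein afamin. Sult2a8 was lowest at 2.97 in animal 84 and 5.35 in animal 179, the 2 livers lowest in Car3, had a median of 9.08 and was highest at 9.93 in animal 79. It changed by 0.71 log2 units per unit of Car3 (SE 0.039, adjusted p = 3.11e-20 by limma), with rho = 0.831. Its r was 0.881 in 46 livers, 0.870 in 38 and 0.763 in 37 livers (adjusted p = 5.42e-05). Within stretches of those 37 livers r was 0.670, 0.891, 0.852 and 0.909.

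Cyp2b9 was lowest at 8.74 in animal 84 and 8.99 in animal 64, had a median of 11.37 and was highest at 11.88 in animal 101, the liver highest in Car3. Its r with Car3 was 0.880 in 46 livers, 0.867 in 38 and 0.510 in 37. Gamt and Afm had r of 0.812 and 0.734 in 46 livers and 0.561 and 0.344 in 37. Cyp2b9, Gamt and Afm did not pass in 37 livers (adjusted p = 0.134, 0.0765 and 0.524 by limma). The 3 genes with the most negative r over 50 livers were Tacc1 (-0.798), a coiled-coil protein of the centrosome and microtubules, Bmper (-0.747), a secreted modulator of bone morphogenetic protein signalling, and Cpne8 (-0.746), a calcium-dependent membrane-binding protein.

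A smaller group of genes stayed with Car3 in every set of livers. In total 30 genes passed with the same sign in 50, 46, 45, 38 and 37 livers, 25 with a positive and 5 with a negative slope. They are named here although most were chosen after their values were seen. Besides Sult2a8 they included Mup3, a major urinary protein (r = 0.849 in 50 and 0.763 in 37 livers, adjusted p = 5.42e-05 in the latter), and Ces1f, a carboxylesterase (0.850 and 0.689, adjusted p = 0.00236). Ces1f had the largest rho with Car3 among these 30, at 0.861, and was lowest in animal 179 at 3.60 around a median of 8.88. Several others act on fatty acids or in peroxisomes and mitochondria: Fabp1, the liver fatty acid-binding protein (0.860 and 0.611), Crot, which transfers medium-chain acyl groups to carnitine (0.803 and 0.618), Acaa1b, a peroxisomal thiolase (0.722 and 0.613), Elovl5, a fatty acid elongase (0.787 and 0.627), and Decr1, a mitochondrial dienoyl-CoA reductase (0.737 and 0.597). Mme, the peptidase neprilysin, had 0.609 and 0.581. Positive genes outside that description included Cd1d1 (0.750 and 0.693), AW112010 (0.738 and 0.643), Apol7a (0.704 and 0.605), Gbp10 (0.655 and 0.612) and Gbp11 (0.654 and 0.580). The 5 negative genes were Slc12a4 (-0.740 and -0.595), Dmxl2 (-0.625 and -0.658), Cd9 (-0.470 and -0.567), Inpp4a (-0.389 and -0.672) and Nrbp2 (-0.381 and -0.651). The Mup, Sult2a, Cyp2b and Ces1 families have close copies, and cross-hybridisation between them was not tested. No test of enrichment was made, so these functions describe the named genes only.

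**Figure D3:**
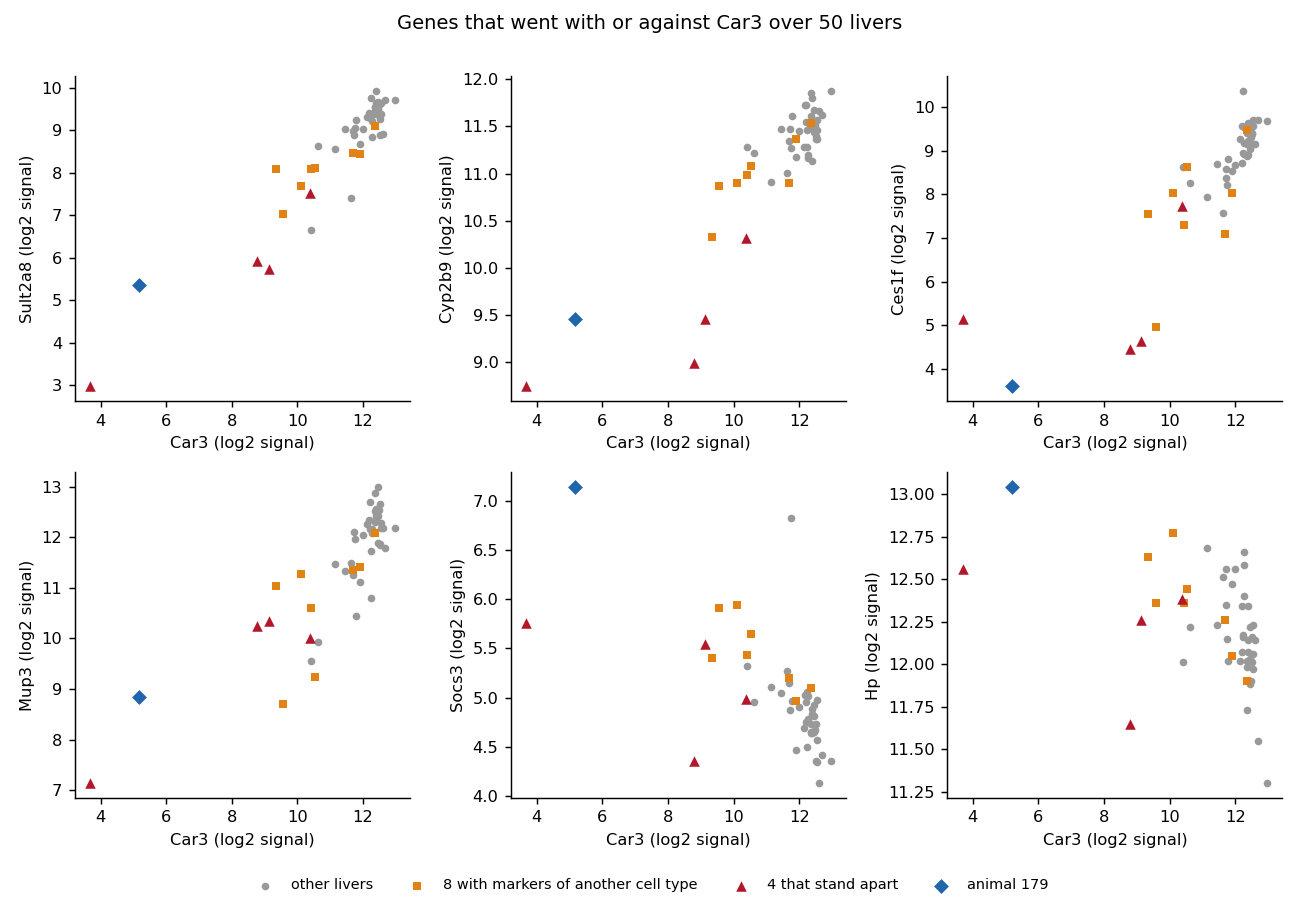
Log2 signals of Sult2a8, Cyp2b9, Ces1f, Mup3, Socs3 and Hp against Car3, 1 point per liver, with symbols for the livers described in the text. Sult2a8 and Ces1f followed Car3 in the grey points and in the marked livers (r = 0.933 and 0.850 over 50 livers), while Socs3 and Hp ran against it (r = -0.640 and -0.465).

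Genes of sex-biased liver expression and of growth hormone signalling were read next, since Car3 is known to respond to both. Of 12 measured female-biased genes 10 passed with a positive and 0 with a negative slope in 50 livers, with a median r of 0.617 (all genes: 6% positive, median r 0.009). In 46 livers 6 passed (all genes: 1.73%), in 38 livers 5 (all genes: 1.06%), and in 37 livers 0, with 3 positive at an unadjusted p under 0.05 in limma. Next to Cyp2b9 the largest r were those of the cytochrome P450 genes Cyp2b13 (0.745) and Cyp3a44 (0.727), Cyp2a4 (0.672) and the acyl-CoA thioesterase Acot3 (0.644). Hao2, a peroxisomal hydroxyacid oxidase, had r = 0.630 in 50 livers and 0.832 in 38, but 0.383 without animal 179 in addition. Of 11 male-biased genes 4 passed with a positive and 1 with a negative slope (all genes: 6% and 7.89%). The negative one was Cyp2d9 (-0.746), whose median of 2.62 lay below the median level of all genes. In 46 livers 2 passed with a positive and 1 with a negative slope, in 38 livers 0 and 1, and in 37 livers 1 and 0 (Nudt7, r = 0.585), with 4 positive at an unadjusted p under 0.05. The difference between the female-biased and male-biased lists was not tested. The female-biased counts were not particular to Car3. On Car8 10 of the 12 genes passed with a positive and 0 with a negative slope in 50 livers (all genes: 12.6% positive). Their median r with Car8 was 0.609, and 4 passed in 46 livers (all genes: 1.35% positive).

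In the growth hormone and IGF axis 3 of 11 measured genes passed with a positive and 2 with a negative slope over all livers (all genes: 6% and 7.89%). The median r was 0.111. In 46 livers 2 and 2 passed, and in 45 livers 2 and 4, with a median r of -0.259. In 38 livers 2 and 1 passed, with a median r of 0.249. In 37 livers 0 passed by limma, with 2 positive and 4 negative at an unadjusted p under 0.05. Over all livers the growth hormone receptor gene Ghr had r = 0.584 (rho = 0.692) and Stat5b had 0.513. Igfals, which encodes the acid-labile subunit that carries IGF1 in blood, had 0.790. In 46 livers Ghr and Igfals had r of 0.611 and 0.571 (adjusted p = 0.000655 and 0.0026), and in 37 livers 0.411 and 0.394 and did not pass. The inhibitors Cish and Socs3 had r of -0.481 and -0.640. Socs3 was lowest at 4.13 in animal 24, which had the third highest Car3, had a median of 4.93 and was highest at 7.14 in animal 179. Its r was -0.786 in 46 livers (adjusted p = 4.96e-08), -0.667 in 45 (adjusted p = 0.000127) and -0.501 in 37, where it did not pass. Within the stretches of the 37 livers it was -0.783, -0.665, -0.741 and -0.636.

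Acute phase genes ran against Car3 once the 4 livers that stand apart were left out. In 50 livers 0 of 18 measured genes passed with a positive and 4 with a negative slope (all genes: 6% and 7.89%), with a median r of -0.249. In 46 livers 15 of 18 passed, all negative (all genes: 1.4% negative), with a median r of -0.489. The largest were Apcs, serum amyloid P (-0.648), the protease inhibitor gene Serpina3n and haptoglobin, Hp (both -0.614), Itih3 (-0.582) and the glycoprotein gene Orm1 (-0.561). Animal 179, the liver with the highest values of many of these genes, weighed on that count: without it 6 of 18 passed in 45 livers (all genes: 1.29% negative), with a median r of -0.391. In 38 livers 9 of 18 passed (all genes: 1.15% negative). In 37 livers 0 did by limma, with 11 of 18 negative at an unadjusted p under 0.05 and a median r of -0.341. Neutrophil markers moved in the same direction. In 50 livers 4 of 12 passed with a negative slope (all genes: 7.89%), at -0.620 for Retnlg, -0.492 for Mmp8, -0.442 for S100a8 and -0.397 for S100a9. With such a slope 3 of the 12 passed in 46 livers (all genes: 1.4%) and 0 in 37. In those 37 livers 3 were negative at an unadjusted p under 0.05 in limma. Of the 12 kidney tubule genes, listed after the values were seen, 10 passed with a negative slope in 50 livers (all genes: 7.89%), with a median r of -0.543. In 46 livers, without animal 84 among others, 0 passed by limma and the median r was 0.042. Animal 84 was highest in 11 of these genes and lowest in Car3. The kidney count in 50 livers thus describes this 1 liver and is no test. Of 8 erythroid genes 0 passed in 50 and 46 livers, 4 passed with a negative slope in 45 (all genes: 1.29%) and 0 in 37. Their median r was -0.233, -0.229, -0.444 and -0.017.

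Genes for protection from oxidants gave a mixed picture. Of 11 antioxidant enzymes 4 passed with a positive and 0 with a negative slope in 50 livers (all genes: 6% and 7.89%), with a median r of 0.131. They were the catalase gene Cat (0.743), the peroxiredoxin gene Prdx4 (0.635), the superoxide dismutase gene Sod1 (0.572) and the glutathione peroxidase gene Gpx1 (0.535). Cat, Sod1 and Gpx1 also passed in 46 livers (all genes: 1.73% positive), with r of 0.653, 0.601 and 0.468. In 37 livers 0 passed by limma, with 3 positive and 1 negative at an unadjusted p under 0.05, and with Sod1 at 0.430 and Cat at 0.296. Of 13 targets of NRF2, the transcription factor of the oxidant response, 3 passed with a positive slope (all genes: 6%). The median r of the 13 was -0.127. One of the 3, Gclc, a subunit of the rate-limiting enzyme of glutathione synthesis, had r = 0.455 in 50, 0.736 in 38 and 0.479 in 37 livers. It passed in 46, 45 and 38 livers as the only gene of the list, and in 37 livers its adjusted p was 0.179.

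Lipogenesis genes followed Car3 over all livers, with 11 of 13 passing with a positive slope (all genes: 6%) and a median r of 0.473. They followed Car8 too, with 12 of 13 passing with a positive slope (all genes: 12.6%) and a median r of 0.560. In 46 livers only Elovl5 passed on Car3 (r = 0.666), with a median r of 0.159. On Car8 0 did by limma, with 2 positive at an unadjusted p under 0.05. The fatty acid synthase gene Fasn had r with Car3 of 0.491 in 50 and 0.086 in 46 livers. Among 8 enzymes that use bicarbonate as a substrate, Acaca, Acacb and Pcca passed with a positive slope in 50 livers (all genes: 6%), with r of 0.417, 0.473 and 0.403. In 46 livers 0 of the 8 passed by limma, with 3 positive and 1 negative at an unadjusted p under 0.05. Of 14 bicarbonate and anion transporters 1 passed with a positive slope, Slc26a1, an exchanger of sulfate, oxalate and bicarbonate (r = 0.751, 0.637 in 46 and 0.300 in 37 livers), and Slc4a9 and Slc26a4 passed with a negative slope in 50 livers and not in 46. Of 10 pericentral genes 5 passed with a positive and 1 with a negative slope in 50 livers, and of 10 periportal genes 2 and 0 (all genes: 6% and 7.89%). In 46 livers Cyp1a2 (pericentral, r = 0.550) and Aldh1b1 (listed as periportal, r = 0.547) passed. In 45 livers, without animal 179, 0 periportal genes passed with a positive and 2 with a negative slope (Arg1, -0.564, and Asl, -0.460), with a median r of -0.219, against -0.091 in 46 and 0.102 in 50 livers. In 37 livers the periportal median r was -0.215, and 0 passed by limma, with 4 negative at an unadjusted p under 0.05. The pericentral median r was 0.324 in 50, -0.087 in 46, 0.247 in 45, -0.188 in 38 and 0.048 in 37 livers. In 45 livers 2 pericentral genes passed with a positive slope (all genes: 3.16% in either direction). In 37 livers 0 of them passed by limma, with 3 positive at an unadjusted p under 0.05. Of 11 hepatocyte markers 5 passed with a positive slope in 50 livers (all genes: 6%), led by the transthyretin gene Ttr (0.814), and 2 did in 46 (all genes: 1.73%), Ttr and Cyp8b1. In 45 livers 0 did by limma, with 1 positive and 1 negative at an unadjusted p under 0.05.

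**Figure D4:**
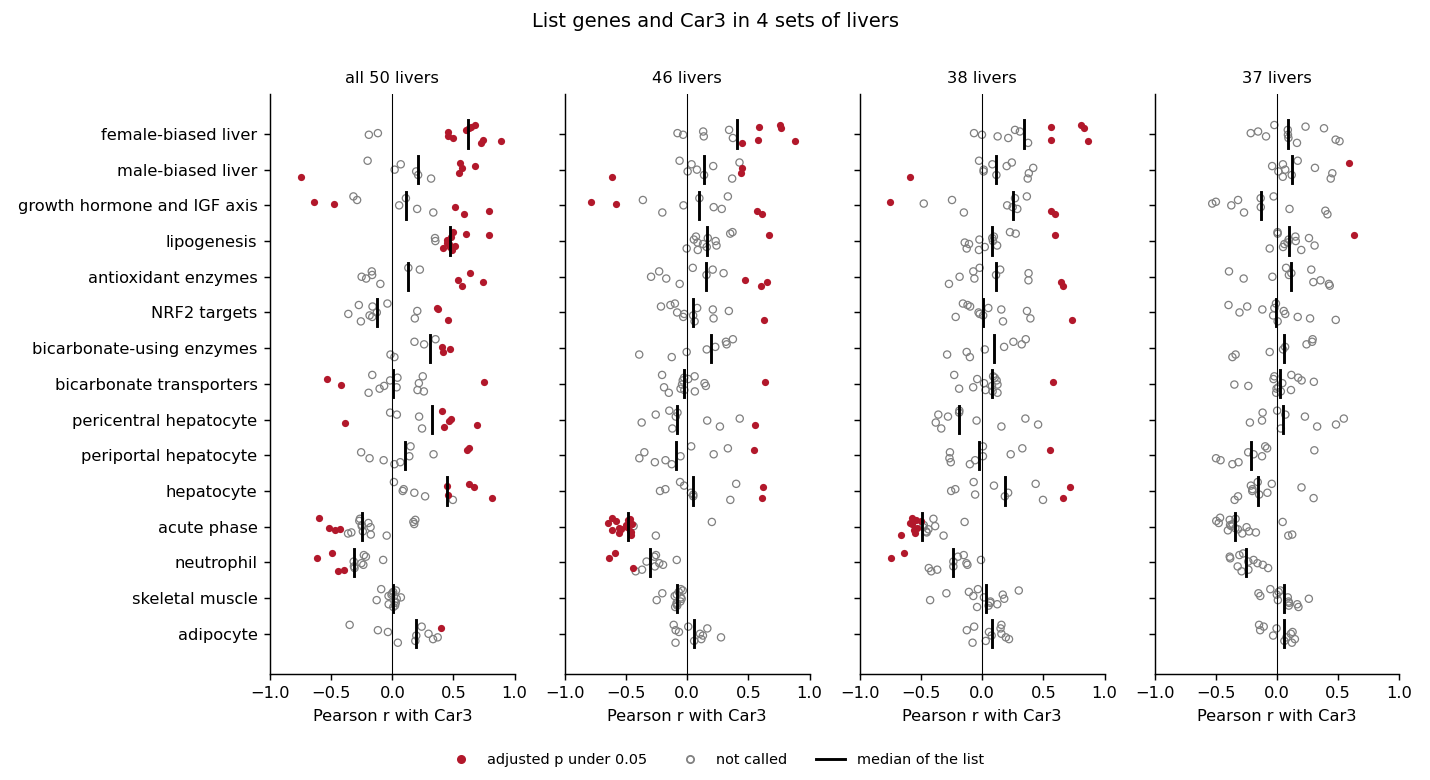
Pearson r with Car3 of each measured gene in 15 lists, in 50, 46, 38 and 37 livers from left to right; filled points passed at an adjusted p under 0.05, open points did not, and vertical bars are list medians. The female-biased list had 10, 6, 5 and 0 filled points and the acute phase list 4, 15, 9 and 0 on the negative side.

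Car1 and Car2 went with genes of red blood cell precursors, the cells in which both enzymes are abundant. Of 18 erythroid genes listed 8 were measured, the globins not among them. All 8 passed with a positive slope on Car1 (10.9% of all genes did), with a median r of 0.894, and all 8 on Car2 (11.3% of all genes), with a median r of 0.804. The Rh-associated glycoprotein gene Rhag read 8.89 in animal 64 and 5.55 in animal 257 around a median of 2.60, and the anion exchanger gene Slc4a1, band 3 of red cells, read 10.92 and 8.49 around 4.33. The erythroid list had a mean standardised value of 6.01 in animal 64 and 2.09 in animal 257, the only livers above 2. In 46 livers 4 erythroid genes passed on Car1 (0.0451% of all genes did) and 7 on Car2 (0.275% of all genes). In 38 livers 0 passed on either by limma (0.198% of all genes on Car1), with 2 positive on Car1 and 5 on Car2 at an unadjusted p under 0.05. Slc4a1 and Car2 still had r = 0.709 in 46 livers (adjusted p = 9.5e-05) and 0.608 in 38 livers (adjusted p = 0.166). On Car2 limma called 0 genes in 38 livers, with 1430 at an unadjusted p under 0.05, which was 6.45% of all.

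The genes most like Car1 were Rhd (0.900), a red cell Rh antigen, Cldn13 (0.897), Kif18b (0.883), E2f2 (0.864) and Fzr1 (0.859), the last 3 with roles in the cell cycle. Their rho with Car1 lay between 0.175 and 0.368. In 46 livers their r lay between 0.318 and 0.510, and none of them passed by limma (adjusted p between 0.302 and 0.849). Cldn13 alone passed when animal 179 was also left out (45 livers, r = 0.590, adjusted p = 0.0423). The genes most like Car2 were Cdr2 (0.866), Mkrn1 (0.850), Plek2 (0.827), Metap2 (0.824) and Nt5c3 (0.822), the nucleotidase of maturing red cells. Cdr2 and Mkrn1 kept r of 0.671 and 0.716 with Car2 in 46 livers. The genes with the most negative r on Car1 were hepatocyte enzymes and plasma proteins, Cps1 (-0.781), Plg (-0.777) and Cbs (-0.759), and these were -0.210, -0.319 and -0.265 in 46 livers. Car2 also lay above 8 in 4 other livers. It read 8.04 in animal 170 and 8.03 in animal 235, in which Slc4a1 was raised too, at 7.35 and 6.67. It read 8.95 in animal 96 and 8.58 in animal 84, in which Slc4a1 was near its median, at 4.54 and 3.80. Animal 96 had the highest pancreatic acinar marker level, with a mean standardised value of 4.70, and the highest cholangiocyte level, at 3.42, and animal 84 had the kidney genes. The part of these cells in the Car2 signal was not tested.

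Car4, and with it Car15, was tied to animal 84. Of 12 kidney tubule genes 11 passed with a positive slope on Car4 in 50 livers (2.29% of all genes did), with a median r of 0.693. The list was chosen after the values were seen, and animal 84 was highest in 11 of its genes and in Car4. The count therefore describes this 1 liver and is no test of a link between Car4 and kidney genes. In 46 livers 0 passed, with 1 negative at an unadjusted p under 0.05 in limma and a median r of 0.056. On Car4 limma called 0 genes of any kind in 46 livers, with 1741 at an unadjusted p under 0.05, which was 7.85% of all. The gene most like Car4 was Cndp1 (0.756), a carnosinase, followed by Ccl28 (0.725), Cd63 (0.711), AI314278 (0.707) and Ace (0.706), the angiotensin-converting enzyme, and these r were at most 0.395 in 46 livers. Car15 had r = 0.718 with Car4 in 50 livers and 0.002 in 46. Animal 123, second in the kidney list with a mean standardised value of 1.42, read 3.16 for Car4 and 3.46 for Car15, close to their medians.

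**Figure D5:**
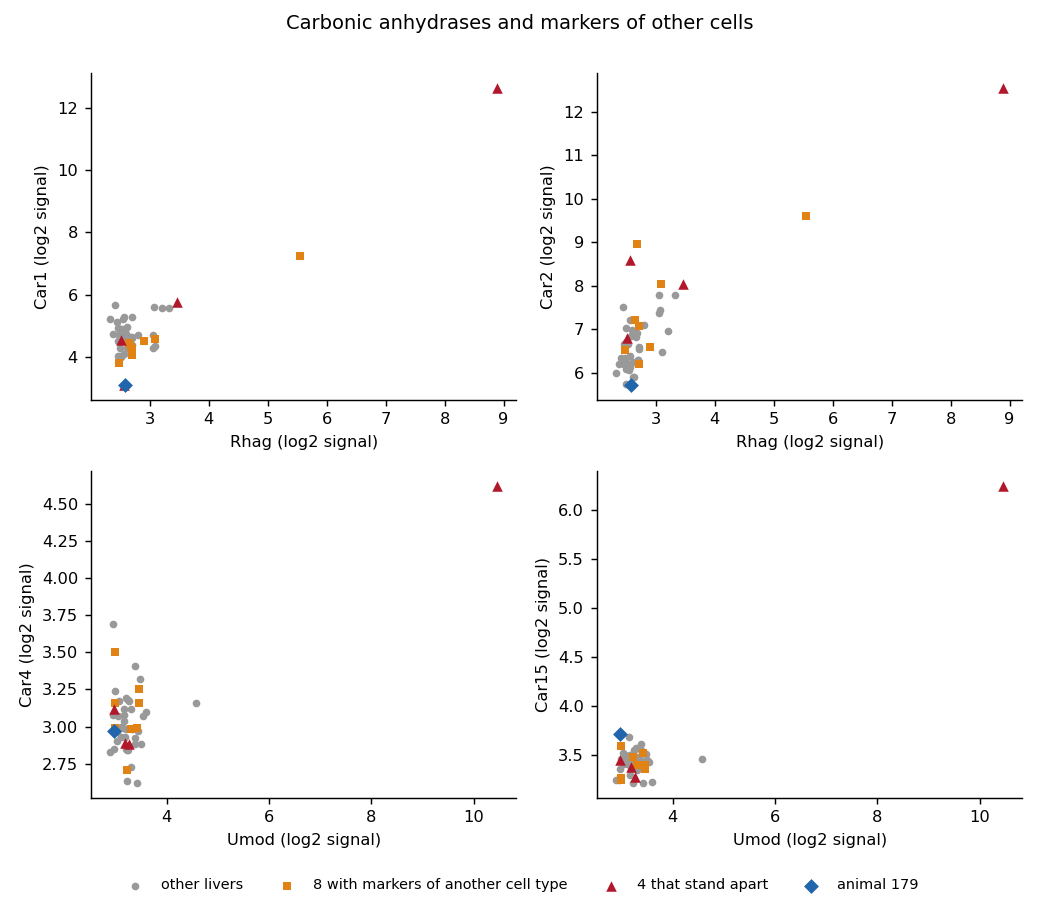
Log2 signals of Car1 and Car2 against the erythroid gene Rhag, and of Car4 and Car15 against the kidney gene Umod, 1 point per liver with symbols as before. Animals 64 and 257 were high in Rhag, Car1 and Car2, and animal 84 alone was high in Umod, Car4 and Car15.

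The genes that passed with Car8 in 50 livers included hepatocyte markers. On Car8 29.1% of all genes passed in 50 livers, 12.6% with a positive slope, and 1.97% passed in 46 livers. The most like it were Maob (0.896), a monoamine oxidase, Cyp2d37-ps (0.889), Pon1 (0.884), a paraoxonase of lipoproteins, Apoc1 (0.882), an apolipoprotein, and Galm (0.880). Apoc1 had rho = 0.826 and r of 0.761 in 46 and 0.840 in 38 livers. Of 11 hepatocyte markers 9 passed with a positive slope, and of 8 bicarbonate-using enzymes all 8 did, with a median r of 0.525, led by Pcca (0.650) and Mccc2 (0.621). In 46 livers 3 and 2 did (1.35% of all genes), the 2 enzymes being Mccc2 (0.520) and Pccb (0.480). In 45 livers, without animal 179, 0 of either list passed by limma (0.911% of all genes did), with 3 hepatocyte markers and 4 enzymes positive at an unadjusted p under 0.05. Markers of other cells ran against Car8 in 50 livers: all 8 erythroid genes measured (median r -0.464), 10 of 12 kidney tubule genes (-0.455) and 6 of 12 neutrophil genes (-0.357) passed with a negative slope (16.5% of all genes did). In 46 livers 0, 0 and 2 of them did by limma (0, 0 and 10 at an unadjusted p under 0.05), with median r of -0.094, -0.005 and -0.347. Their part in the Car8 results was not tested. The kidney list was chosen after the values were seen, and animal 84 was highest in 11 of its genes and lowest in Car8. The kidney count in 50 livers therefore describes this 1 liver and is no test. Sod1 had r = 0.718 and rho = 0.718 with Car8, and r = 0.711 in 46 livers (adjusted p = 0.000259). In 37 livers limma called 0 genes on Car8, with 1919 at an unadjusted p under 0.05, which was 8.65% of all.

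No carbonic anhydrase passed on the animal number in 50 livers, the one number in the labels that differs between mice. On that number 3.52% of all genes passed in 50 livers, and the adjusted p of the 5 members lay between 0.247 for Car8 and 0.912 for Car2. Per 100 numbers Car3 differed by 0.12 log2 units (SE 0.289) and Car8 by 0.16 (SE 0.073). In 37 livers Car8 passed, with a slope of 0.10 per 100 numbers (SE 0.032, adjusted p = 0.0493), where 4.93% of all genes did.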

How the data were processed

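Total RNA (100 ng) was amplified with the WT Plus kit and hybridised to 1 Affymetrix array per liver, per the labels' protocols. Per the submitters' processing notes, the authors used Affymetrix Expression Console 1.4.1 with RMA to make the deposited log2 signals. Its quantile step removes differences in total RNA, and array medians lay between 3.27 and 3.34. The genome build is not given in the sources used here. Precision is limited by the number of arrays.

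Of 41345 probe sets 23521 carried 1 gene symbol, 1814 several and 16010 none, and only the first were named. Each gene was taken from its probe set with the highest median, which gave 22180 genes. Neighbouring genes were read from a RefSeq table of GRCm38.p6. Every named gene was fitted on each measured carbonic anhydrase and on the animal number with limma 3.58.1 (lmFit, eBayes with trend) in R 4.3.3, with Benjamini-Hochberg adjustment over all genes at 0.05. Pearson's r and Spearman's rho of pairs had two-sided permutation p-values (100000 resamples; Python 3.11.15, numpy 2.4.6, pandas 2.3.3, scipy 1.17.1). Each array is a separate mouse, going by the animal numbers.

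The members, the 23 gene lists and the stretches of animal numbers were chosen with earlier results of these data known. The kidney tubule list, the removal of 12 livers (the 4 that stand apart and those with a list mean above 2 SD) and of single animals were chosen after the values were seen. The 4 livers that stand apart have median correlations under the lower quartile by over 3 times the interquartile range. Genes were named by rule: the members and other carbonic anhydrases, the 5 highest r of each member at or above the median level of 3.61, up to 5 genes per list with the largest r, textbook markers, and chromosome neighbours. The rule also held the 3 lowest r of each member at or above that level, which are named for Car3 and Car1 only. Those among the 30 genes that passed in every set of livers, other than Sult2a8, Elovl5 and members of lists, and further list genes, were named after their values were seen. The fit was tested on simulated data. Sequences were not analysed here. Alternatives covered the livers used, blocks for stretches, the first array component, ranks, array centring, probe set choice and a level filter.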

Additional observations from a re-analysis of the deposited data

How the results depend on the processing

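No paired analysis was possible because the labels give only 1 group. The number of genes passing with Car3 was 3080 in 50 livers and 694 without the 4 livers that stand apart, 701 without these and animal 179, 490 without the 12 livers, 52 without the 12 and animal 179, and 2040 without animal 84. With the first array component (25.8% of the variance) as a covariate it was 1390, and on ranks 1791. Car3 with Car1 had r of 0.013, which became -0.380 without the 2 farthest livers, 0.481 with the first component, 0.426 on ranks, 0.673 without the 12 livers, 0.572 without these and animal 179, and 0.400 without animal 64. In fits on Car3, Car2 had r of -0.360 and did not pass as reported. It passed without the 2 farthest livers (-0.553), with stretches as a block (-0.394), with the mean of all probe sets (-0.371), among genes at or above the median level (-0.360, fewer genes tested) and without animal 179 (-0.515). In the fit on Car2 the pair passed in 50 livers (adjusted p = 0.0387 by limma). Car3 with Car4 no longer passed without the 4 livers (-0.136), without the 2 farthest (-0.136), on ranks (-0.233), without the 12 livers (-0.003), without the 4 or the 12 and animal 179 (-0.261 and -0.092) and without animal 84 (-0.073). Car3 with Car8 no longer passed without animal 179 and the 4 (0.287) or the 12 livers (0.193), and kept its direction and call under the other alternatives run. Car2 with Car8 turned from -0.590 to 0.231 without the 12 livers and 0.073 without these and animal 179. Car1 with Car2 fell to 0.331 without animal 64 (adjusted p = 0.454 by limma), and Car1 with Car8, which did not pass as reported, passed without animal 84 (-0.546) and without animal 179 (-0.411), with stretches as a block (-0.383) and among genes at or above the median level (-0.338). Car4 with Car8 passed with the first component (-0.474) and without animal 64 (-0.469). Car4 lies below the level filter, so fits on other members gave it no value there, and on Car4 itself 297 genes passed against 596. The cause of these shifts was not tested, beyond the livers or genes left out in each. Fits in 37 livers have a narrower range of Car3 (SD 0.54 against 1.77), which limits what they can detect.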
